A study of Mus musculus with 16 samples.

Results

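Nuclear factor erythroid 2-related factor 2 (NRF2), encoded by Nfe2l2, and 9 enzyme genes of the antioxidant defence were followed in mouse liver after loss of oestrogen receptor alpha (ERα, encoded by Esr1). The 9 enzyme genes were Nqo1, Gclc, Gclm, Txnrd1, Srxn1, Sod1, Sod2, Cat and Gpx1. The 10 genes were picked by symbol as a pathway, and they are 10 of the 35502 genes in the deposited table. Liver RNA of individual mice was sequenced, 4 mice in each of 4 groups. Mat.LERKO mice were labelled mature and carried Cre, which makes them liver-specific ERα knockouts. Mat.Con mice were labelled mature and were floxed controls without Cre. Imm.LERKO mice were labelled immature and carried Cre. Imm.Con mice were labelled immature and were floxed controls without Cre. All 4 groups share the floxed background. Mature and immature refer to sexual maturity. Whether that was the state when ERα was removed or when liver was taken was not given in the sources used here, nor were the way Cre was introduced, the strain, the age and the sex of the mice. Wherever mice, livers, knockouts or stages are called mature or immature below, the word repeats this label and does not settle which state it describes.

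NRF2 is a transcription factor that is held at a low level in resting cells because KEAP1 binds it and directs it to degradation. Oxidants and electrophiles modify KEAP1, NRF2 then accumulates in the nucleus, pairs with small MAF proteins and binds antioxidant response elements near genes for glutathione synthesis, quinone reduction and thioredoxin recycling. Superoxide dismutases, catalase and glutathione peroxidase remove superoxide and hydrogen peroxide directly, and liver is rich in all of them because of its peroxisomal and mitochondrial oxidation. Because NRF2 is controlled mainly as a protein, Nfe2l2 RNA is no measure of its activity.

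Matches to the DNA letters that NRF2 is known to bind are shown first, as sequence context for the genes called NRF2 targets. RefSeq promoter windows on GRCm38.p6 were matched for 9 of the 10 genes (all but Gclc). The 250 bases before each start were searched on both strands for TGACNNNGC, the core of the antioxidant response element, and for TGANTCA, a core of the AP-1 type that reads alike on both strands and can share bases with TGACNNNGC. TGACNNNGC was found for 4 genes, where a gene counts if any of its windows matched. The 9 genes had 11 windows, since Txnrd1 had 3. Of 32851 RefSeq promoter windows of this length, 10.2% hold TGACNNNGC, which is a share by window and not by gene. TGANTCA was found for Srxn1, and 6.75% of windows hold it. The windows of Nqo1, Sod2, Cat and Gpx1 had neither run of letters, and sequence outside the 250 bases was not searched for any gene. Capitals mark the match, and the strand given is that of the gene. In the sequences of Gclm, Txnrd1 and Sod1 the match lies on the other strand, so the capitals read as its reverse complement. A match describes letters only and was not tested as a binding site.
Nfe2l2 (chr2:75704885-75704913, minus strand): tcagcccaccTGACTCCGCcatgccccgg
Gclm (chr3:122245413-122245441, plus strand): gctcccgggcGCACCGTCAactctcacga
Txnrd1, second of 3 listed starts (chr10:82859104-82859132, plus strand): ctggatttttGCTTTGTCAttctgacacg
Srxn1, with 2 matches (chr2:152105412-152105495, plus strand): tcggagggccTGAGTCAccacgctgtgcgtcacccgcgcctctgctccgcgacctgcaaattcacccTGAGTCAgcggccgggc
Sod1 (chr16:90220696-90220724, plus strand): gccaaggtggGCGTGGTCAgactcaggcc

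Libraries held 18123974 to 23213905 counts, and levels are given as CPM, a gene's share of its library's TMM-scaled total. Esr1 was at 15.8, 19.1, 16.4 and 13.9 CPM in Mat.LERKO livers, against 75.0, 66.7, 110.1 and 76.9 CPM in Mat.Con livers. It was at 10.7, 12.6, 16 and 12.7 CPM in Imm.LERKO livers, against 65.8, 84.5, 89.0 and 55.3 CPM in Imm.Con livers. Esr1 fell to 19.9% of the Mat.Con level (95% interval 15.1 to 26.1%) and to 17.6% of the Imm.Con level (13.4 to 23.2%), with adjusted p-values of 1.57e-05 and 6.55e-06 by edgeR's quasi-likelihood test with Benjamini-Hochberg adjustment. The exon that Cre removes was not given in the sources used here, so the remaining Esr1 counts may hold reads of exons still present. All 8 hepatocyte markers, albumin and transthyretin among them, had counts, with a summed level of 87300 to 161000 CPM. The library Mat.LERKO 4 stood apart: its acute phase transcripts summed to 89300 CPM, against 8230 to 9270 CPM in the other Mat.LERKO libraries and 6930 to 9230 CPM in Mat.Con, and its 5 neutrophil markers to 71.1 CPM, against at most 3.66 CPM in every other library. It also had the lowest endothelial and stellate cell marker sums of all 16, 77.2 and 61.5 CPM, and the highest Kupffer cell sum, 301 CPM. Skeletal muscle markers summed to 761 and 316 CPM in Mat.Con 1 and 2, to 54.4 CPM in Mat.Con 4 and to 149 CPM in Imm.LERKO 4, and to at most 1.98 CPM elsewhere.

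In Mat.LERKO against Mat.Con livers, no difference passed the test for any of the NRF2 and antioxidant genes. The count of the 10 past an adjusted p of 0.05 was 0 (edgeR's quasi-likelihood test), where 0.00747% of the 13379 genes tested did, Esr1 alone. At an unadjusted p below 0.05 there was 1 of the 10, Txnrd1, against 7.3% of all tested genes. DESeq2 gave the same counts for the 10, although it called 27 genes in all. Of the 10, 5 had a positive log2 fold change, and their median was 0.05, against 48.2% positive and a median of -0.01 over all tested genes. The 95% intervals of all 10 lay within a 2-fold change in either direction, which held for 81.2% of all genes, and those of 7 within 1.5-fold, which held for 58.5%. A p that misses the threshold does not show equal levels, and these intervals give the size of change that remains possible. Stellate cell markers summed to 61.5 to 241 CPM in Mat.LERKO and 251 to 327 CPM in Mat.Con, with no overlap, and their part in these values was not tested.

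In immature mice none of the 10 passed either, where again 0.00747% of genes did, Esr1 alone (edgeR). At an unadjusted p below 0.05 there was 1 gene, Nqo1, against 2.76% of all tested genes, and DESeq2 also gave 0 and 1. The log2 fold changes were positive for 5 of the 10 and had a median of -0.01, against 53.2% positive and a median of 0.01 over all genes. All 10 intervals lay within 2-fold, against 83.4% of all genes, and 6 within 1.5-fold, against 61.6%. Averaged over both stages, none of the 10 passed and none had an unadjusted p below 0.05 by edgeR or DESeq2, against 3.69% of all genes at that unadjusted p by edgeR, and the knockout effect lay between -0.09 and 0.20 on the log2 scale, and every interval was within 1.5-fold, which held for 76.8% of all genes. In bulk liver RNA, fewer cells of a type and less RNA per cell cannot be told apart, and this holds for every value below.

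**Figure D1:**
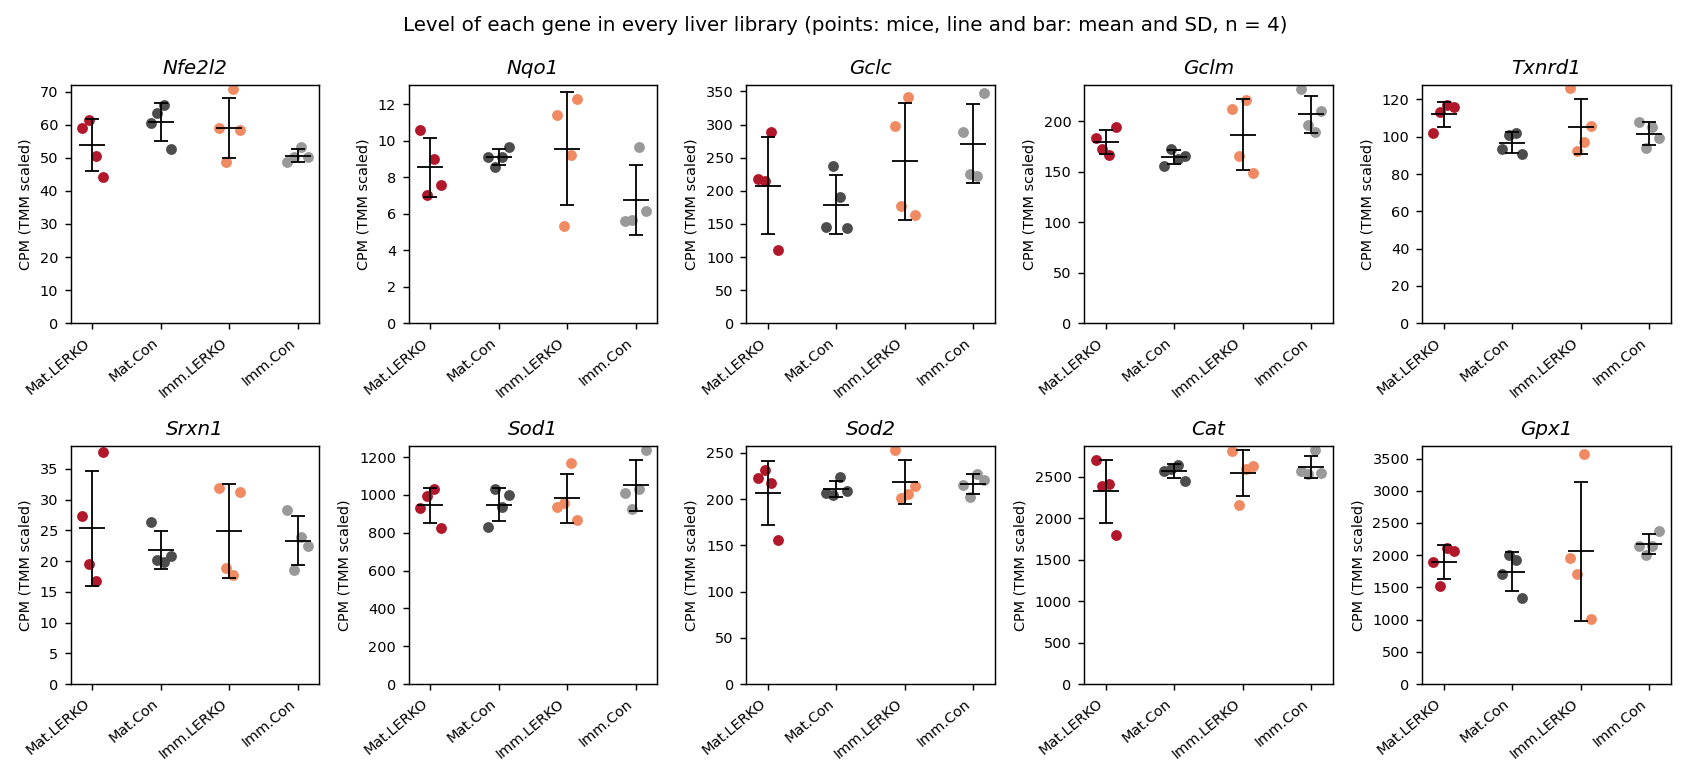
Level of each of the 10 genes in CPM after TMM scaling (vertical axes, from 0) in the 16 libraries. Points are mice, the long line is the group mean and the bar its SD (n = 4). Gclc, Gpx1, Srxn1 and Nqo1 scatter widely within groups, for example Gpx1 from 1012 to 3571 CPM in Imm.LERKO, while Txnrd1, Cat, Sod2 and Gclm stay in narrow bands.

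Nfe2l2 (ENSMUSG00000015839, chr2:75675513-75704641 on GRCm38, minus strand) encodes NRF2 itself. It was at 58.9, 61.5, 50.5 and 44.3 CPM in Mat.LERKO livers, against 60.6, 63.6, 65.9 and 52.8 CPM in Mat.Con livers. Its level was 58.9, 48.6, 70.7 and 58.3 CPM in Imm.LERKO livers, against 48.8, 50.2, 53.4 and 50.2 CPM in Imm.Con livers. The groups overlapped at both stages, with Mat.LERKO 4 lowest of all 16 and Imm.LERKO 3 highest. The log2 fold change was -0.17 ± 0.12 (SE) in mature mice (edgeR adjusted p = 0.759) and 0.22 ± 0.12 in immature mice (edgeR adjusted p = 1). Without Mat.LERKO 4 the mature value was -0.06. The mature minus the immature effect was -0.40 ± 0.17, with an unadjusted p of 0.0324 and an adjusted p of 0.773 in the edgeR fit. The estimates had opposite signs at the 2 stages, and the test of their difference did not pass.

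Nqo1 (ENSMUSG00000003849, chr8:107388225-107403206, minus strand) encodes NAD(P)H quinone dehydrogenase 1, which reduces quinones by an obligate 2-electron step and is a widely used readout of NRF2. It was at 10.6, 7.0, 8.98 and 7.58 CPM in Mat.LERKO livers, against 9.09, 8.55, 9.11 and 9.63 CPM in Mat.Con livers, and the Mat.Con values lay inside the range of the knockouts. The immature mice had 11.4, 5.33, 9.20 and 12.3 CPM in Imm.LERKO livers, against 5.60, 5.63, 9.64 and 6.13 CPM in Imm.Con livers. The immature groups overlapped: 3 knockouts were high and 1 was the lowest of all 16, while 3 controls were low and 1 was high. The level in Imm.LERKO was 141% of that in Imm.Con (95% interval 101 to 198%), a log2 fold change of 0.50 ± 0.23 (SE) with an unadjusted p of 0.0446 and an adjusted p of 1 by edgeR. Leaving out single libraries moved it between 0.36 (without Imm.LERKO 4, one of the libraries with muscle transcripts) and 0.72 (without Imm.Con 3). The mature minus the immature effect was -0.59 ± 0.32 (edgeR adjusted p = 0.774).

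Gclc and Gclm encode the catalytic and the modifier subunit of glutamate-cysteine ligase, the rate-limiting enzyme of glutathione synthesis. Gclc (ENSMUSG00000032350, chr9:77754535-77794485, plus strand) was at 218, 215, 289 and 110.4 CPM in Mat.LERKO livers, against 146, 237, 189.7 and 144 CPM in Mat.Con livers. In Imm.LERKO livers it was at 298, 177, 341 and 163 CPM, against 289, 225, 222 and 348 CPM in Imm.Con livers. The groups overlapped at both stages, and Mat.LERKO 4, the lowest of all 16, stood well below the other 3 Mat.LERKO livers. The mature knockout level was 116% of control with a wide interval (76.4 to 177%), and the immature one was 90.3% of control (59.4 to 137%). Without Mat.LERKO 4 the mature log2 fold change was 0.46 ± 0.26 (SE).

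Gclm (ENSMUSG00000028124, chr3:122245557-122270732, plus strand) was steadier than its partner. It was at 184, 173, 167 and 194 CPM in Mat.LERKO livers, against 156, 173, 163 and 166 CPM in Mat.Con livers. Its level was 212, 166, 221 and 149 CPM in Imm.LERKO livers, against 232, 196, 190.3 and 209.7 CPM in Imm.Con livers. The groups overlapped at both stages, and 2 immature knockouts lay below all 4 of their controls. The log2 fold change was 0.12 ± 0.12 (SE) in mature mice (edgeR adjusted p = 0.838) and -0.15 ± 0.12 in immature mice (edgeR adjusted p = 1).

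Txnrd1 (ENSMUSG00000020250, chr10:82833951-82897712, plus strand) encodes cytosolic thioredoxin reductase, a selenoenzyme that keeps thioredoxin reduced. It was at 102.4, 113, 117 and 116 CPM in Mat.LERKO livers, against 93.3, 101, 102.2 and 90.7 CPM in Mat.Con livers. These groups did not overlap, although the lowest knockout and the highest control were almost level. Among all tested genes, 3.9% had mature knockout and control groups that did not overlap, 1.61% with the knockouts higher, and Txnrd1 was the 1 such gene of the 10. Its level in Mat.LERKO was 116% of that in Mat.Con, a log2 fold change of 0.21 ± 0.10 (SE) with an unadjusted p of 0.0486 and an adjusted p of 0.683 by edgeR. The value was 0.22 without Mat.LERKO 4 and also 0.22 without the 3 libraries highest in muscle transcripts (Mat.Con 1, Mat.Con 2 and Imm.LERKO 4). In neither of these edgeR fits was the unadjusted p below 0.05. Nor was it with library size alone as the scaling, or without some other single libraries, among them Mat.LERKO 3, Mat.Con 1 and Mat.Con 2. Over the alternatives run, the log2 fold change of Txnrd1 lay between 0.14 and 0.25. The immature mice had 126, 92.6, 97.2 and 106 CPM in Imm.LERKO livers, against 108, 94.0, 105 and 99.4 CPM in Imm.Con livers, and these groups overlapped; no gene of the 10 was free of overlap there, against 1.63% of all genes. The mature minus the immature effect was 0.15 ± 0.14 (edgeR adjusted p = 0.872).

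Srxn1 (ENSMUSG00000032802, chr2:152105516-152111376, plus strand) encodes sulfiredoxin, which repairs overoxidised peroxiredoxins. It was at 27.3, 19.6, 16.8 and 37.7 CPM in Mat.LERKO livers, against 26.4, 20.1, 19.9 and 20.9 CPM in Mat.Con livers. In Imm.LERKO livers it was at 31.9, 18.8, 17.7 and 31.2 CPM, against 28.3, 18.6, 23.9 and 22.4 CPM in Imm.Con livers. In each knockout group 2 mice lay above all 4 controls and the other 2 were among the lowest values of their stage, and Mat.LERKO 4 was highest of all 16. The knockout level was 116% of control in mature mice (81.5 to 165%) and 107% in immature mice (75.1 to 153%).

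The superoxide dismutases turn superoxide into hydrogen peroxide. Sod1 (ENSMUSG00000022982, chr16:90220754-90226329, plus strand), the copper-zinc enzyme of the cytosol, was at 931, 995, 1027 and 823 CPM in Mat.LERKO livers, against 829, 1034, 936 and 1005 CPM in Mat.Con livers. Its level was 939, 955, 1168 and 866 CPM in Imm.LERKO livers, against 1006, 924, 1034 and 1243 CPM in Imm.Con livers. Knockouts and controls overlapped broadly at each stage, at 99.3% of control in mature mice (82.2 to 120%) and 93.4% in immature mice (77.4 to 113%). Sod1 overlaps Scaf4 on the other strand, whose mean count was 2.13% of that of Sod1, and reads of the pair could be mixed, since a strand setting for the counting was not given in the sources used here.

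Sod2 (ENSMUSG00000006818, chr17:13006846-13040063, plus strand), the manganese enzyme of mitochondria, was at 223, 232, 217 and 156 CPM in Mat.LERKO livers, against 207, 204, 224 and 209 CPM in Mat.Con livers. The immature mice had 253, 201, 206 and 214 CPM in Imm.LERKO livers, against 215, 202, 227 and 221 CPM in Imm.Con livers. Mat.LERKO 4 was well below all other libraries and Imm.LERKO 1 above them. The knockout level was 98.1% of control in mature mice (82.5 to 117%) and 101% in immature mice (85.1 to 120%).

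Cat (ENSMUSG00000027187, chr2:103453849-103485160, minus strand) encodes catalase, the peroxisomal enzyme that splits hydrogen peroxide. It was at 2707, 2390.4, 2406 and 1804 CPM in Mat.LERKO livers, against 2572, 2602, 2648 and 2452 CPM in Mat.Con livers. In Imm.LERKO livers it was at 2812, 2162, 2597 and 2626 CPM, against 2573, 2544, 2818 and 2546 CPM in Imm.Con livers. The groups overlapped; 3 of 4 mature knockouts lay below all their controls, Mat.LERKO 4 by the most. The mature log2 fold change was -0.14 ± 0.13 (SE; edgeR adjusted p = 0.822), and it was -0.01 without Mat.LERKO 4.

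Gpx1 (ENSMUSG00000063856, chr9:108338903-108340343, plus strand) encodes the selenoenzyme glutathione peroxidase 1, which uses glutathione to reduce peroxides in the cytosol and mitochondria. It was at 1902, 1517, 2109 and 2062 CPM in Mat.LERKO livers, against 1698, 2012, 1931 and 1342 CPM in Mat.Con livers. Its level was 1962, 1697, 3571 and 1012 CPM in Imm.LERKO livers, against 2153, 2007, 2146 and 2381 CPM in Imm.Con livers. A single group, Imm.LERKO, thus held both the highest and the lowest of the 16 values, while the Imm.Con mice were close together. The immature knockout level was 94.9% of control with a wide interval (64.0 to 141%). The direction rested on single mice: the log2 fold change was -0.48 ± 0.21 (SE) without Imm.LERKO 3, with an unadjusted p of 0.0333 and an adjusted p of 0.935 by edgeR, and 0.15 without Imm.LERKO 4.

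**Figure D2:**
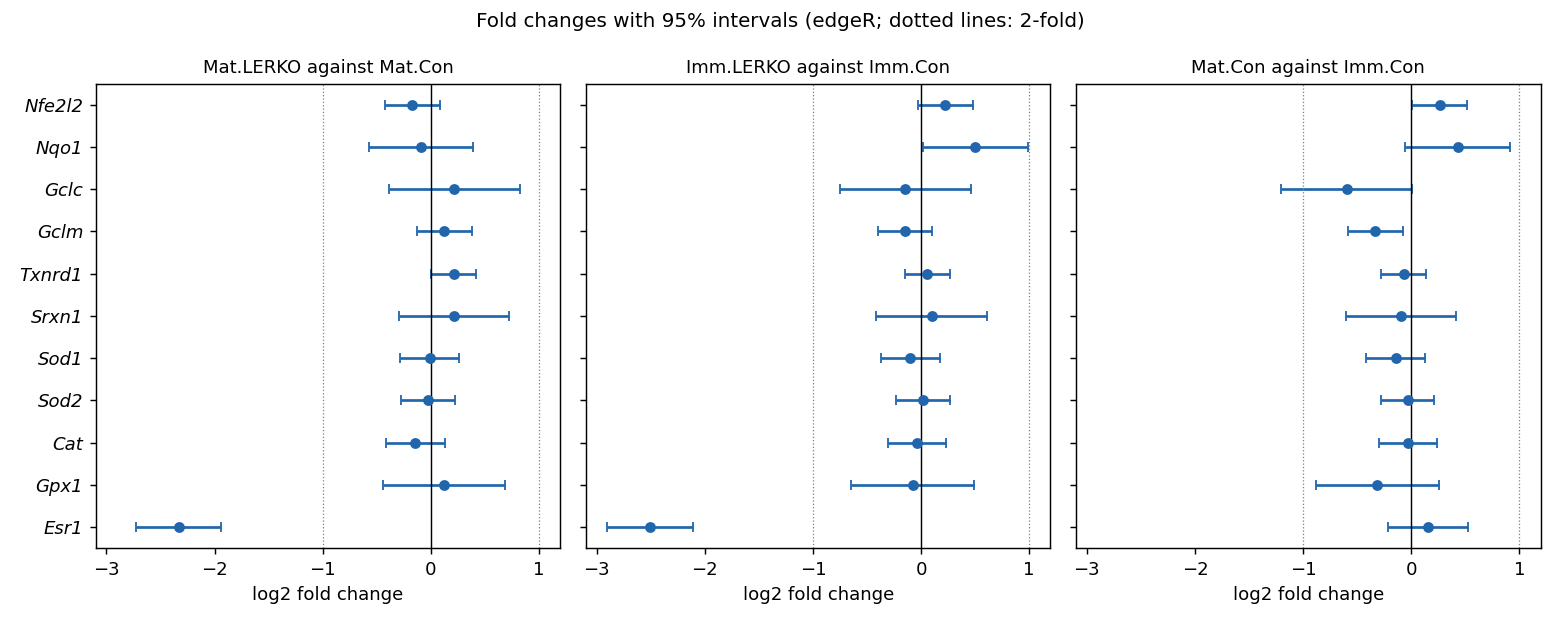
Log2 fold changes (points) with 95% intervals (lines) from edgeR for the 10 genes and Esr1, in Mat.LERKO against Mat.Con, Imm.LERKO against Imm.Con and Mat.Con against Imm.Con. Dotted lines mark 2-fold. Esr1 lies at -2.33 and -2.50 in the knockout panels, and every interval of the 10 genes stays inside the dotted lines there; Gclc crosses the lower line between the control stages.

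Between mature and immature control livers, the glutamate-cysteine ligase subunits had the lowest fold changes of the 10 genes, with lower means in Mat.Con, though neither passed the test. None of the 10 passed an adjusted p of 0.05, and 0% of all genes did by edgeR (DESeq2 called 74 genes, none of the 10). At an unadjusted p below 0.05 there were 2 of the 10, Gclm and Nfe2l2, against 9.84% of all genes, and DESeq2 also gave 2, Gclm and Gclc. Gclm was at 79.4% of the Imm.Con level in Mat.Con (66.7 to 94.7%), a log2 fold change of -0.33 ± 0.12 (SE) with an unadjusted p of 0.0134 and an adjusted p of 0.383 by edgeR. All 4 Mat.Con mice, at 156 to 173 CPM, lay below all 4 Imm.Con mice, at 190.3 to 232 CPM. Such an absence of overlap was found for 1 of the 10 genes, against 8.86% of all genes in either direction and 2.75% with the mature group lower. Gclc had the larger but noisier fold change of -0.60 ± 0.29, at 66.1% of the Imm.Con level (43.4 to 101%; edgeR adjusted p = 0.516).

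Nfe2l2 and Nqo1 had estimates of the other sign in this comparison. Nfe2l2 averaged 60.7 ± 5.73 CPM in Mat.Con and 50.7 ± 1.96 CPM in Imm.Con (SD, n = 4 each), a log2 fold change of 0.26 ± 0.12 (SE; unadjusted p = 0.0445, edgeR adjusted p = 0.492). Nqo1 averaged 9.10 ± 0.441 CPM in Mat.Con and 6.75 ± 1.94 CPM in Imm.Con (SD, n = 4 each), a log2 fold change of 0.43 ± 0.23 (edgeR adjusted p = 0.587). Gpx1 was at 80.4% of the Imm.Con level in Mat.Con (54.2 to 119%) and Sod1 at 90.4% (74.9 to 109%). Txnrd1, Srxn1, Sod2 and Cat were between 93.6 and 98.0% of the Imm.Con level. Muscle transcripts were present in 3 of the 4 Mat.Con libraries and in no Imm.Con library above 1.14 CPM. Stellate cell markers summed to 251 to 327 CPM in Mat.Con and 162 to 211 CPM in Imm.Con, endothelial markers to 168 to 240 CPM in Mat.Con and 113 to 166 CPM in Imm.Con, and Kupffer cell markers to 192 to 266 CPM in Mat.Con and 93.5 to 201 CPM in Imm.Con. The stellate and endothelial sums did not overlap between these groups, and their part in the values of the 10 genes was not tested. With the 3 libraries highest in muscle transcripts left out, the log2 fold change of Gclm was -0.34. Of Mat.Con, that fit keeps only Mat.Con 3 and Mat.Con 4, and Mat.Con 4 still had muscle markers at 54.4 CPM.

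In the knockouts themselves, mature against immature, the 10 genes lay between -0.23 (Gclc) and 0.08 (Txnrd1) on the log2 scale, with edgeR adjusted p-values from 0.955 to 0.999. None had an unadjusted p below 0.05, against 4.93% of all genes, DESeq2 likewise gave 0 called and 0 at that unadjusted p, and no pair of groups was free of overlap, against 1.52% of all genes. Gclm, at 179 ± 12 CPM in Mat.LERKO and 187 ± 34.8 CPM in Imm.LERKO (SD, n = 4 each), overlapped between these groups, unlike between the control stages; a difference of the stage effects is the same test as that of the knockout effects, 0.27 ± 0.17 (SE; edgeR adjusted p = 0.798). Averaged over both genotypes, none of the 10 passed, and 1 had an unadjusted p below 0.05 by edgeR (2 by DESeq2), against 7.92% of all genes by edgeR. Gclm had a log2 fold change of -0.20 ± 0.08 (SE; unadjusted p = 0.0339, edgeR adjusted p = 0.602) and Gclc of -0.42 ± 0.20 (edgeR adjusted p = 0.634). For the difference of the knockout effects, mature minus immature, 0 of the 10 passed by edgeR or DESeq2, where 0% of all genes passed by edgeR, and Nfe2l2 was the 1 gene with an unadjusted p below 0.05 by both tools, against 6.35% of all genes by edgeR. The intervals of this difference were wider: 8 of 10 lay within 2-fold, against 67.6% of all genes. The mature and immature knockout comparisons share no samples, and neither do the stage comparisons in controls and in knockouts, but each stage comparison shares mice with both knockout comparisons.

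Per kilobase of exon, which makes genes comparable, the peroxide-removing enzymes led by a wide margin. Over the 16 libraries Gpx1 averaged 1370 ± 380 CPM per kilobase (SD) and Cat 963 ± 95.4, and the ranges of these 2 genes overlapped. Sod1 followed with 247 ± 27.9 CPM per kilobase, and its range of 207 to 313 overlapped that of no other member. Below it came Gclc with 60 ± 18.9, Gclm with 29.3 ± 3.90, Sod2 with 21.3 ± 2.02, Nfe2l2 with 14.8 ± 1.93, Txnrd1 with 14.7 ± 1.41, Srxn1 with 8.46 ± 2.14 and Nqo1 with 5.46 ± 1.35 CPM per kilobase. Each neighbouring pair in this lower part overlapped in range, and Nfe2l2 and Txnrd1 were level. The joined lengths were 1441 bases for Gpx1, 3970 for Sod1 and 10008 for Sod2. A gene with long alternative ends, such as Sod2, is placed too low by this scale where those ends are unused. This can hold for Sod1 too, and lengths of the transcripts in use were not estimated. The order and the gaps between genes therefore hold for this scale alone.

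**Figure D3:**
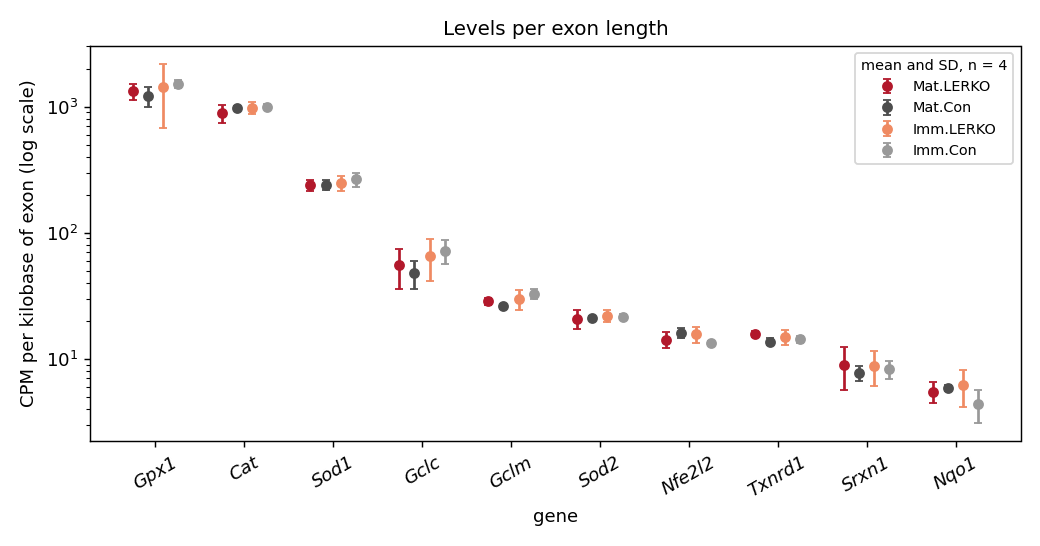
Mean level per kilobase of all annotated exons joined (log scale) with SD (n = 4) for each gene and group, ordered by the mean over all 16 libraries. The order runs from Gpx1 at 1370 to Nqo1 at 5.46 CPM per kilobase, and genes next to each other in the lower part, such as Nfe2l2 and Txnrd1, overlap.

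Mouse-to-mouse variation split the 10 genes into a steady and a variable set. After removal of the group means, Txnrd1 had an SD of 0.12 on the log2 scale, at percentile 9.93 of all tested genes. Cat, Sod2, Gclm, Sod1 and Nfe2l2 followed with SDs of 0.15 to 0.17, at percentiles 21.2 to 27.9 of all tested genes. Nqo1, Srxn1, Gpx1 and Gclc varied more, with SDs of 0.35, 0.38, 0.41 and 0.46 at percentiles 70.6 to 82.2. The highest of the 16 values was 3.53 times the lowest for Gpx1 and 3.15 times for Gclc, against 1.39 times for Txnrd1.

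**Figure D4:**
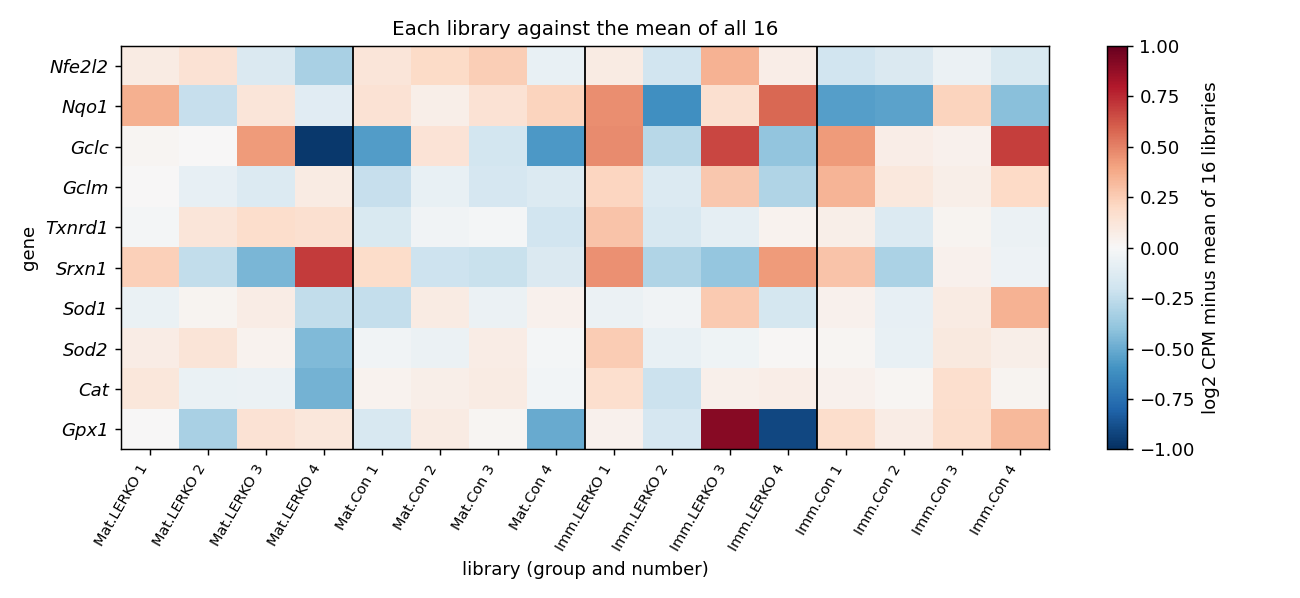
Each library's log2 CPM minus the gene's mean over all 16 libraries (colour scale from -1 to 1) for the 10 genes (rows) in the 16 libraries (columns; black lines part the groups). Mat.LERKO 4 is blue for Gclc, Sod2 and Cat and red for Srxn1, and Gpx1 is darkest in Imm.LERKO 3 and Imm.LERKO 4.

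Within single libraries the 10 genes did not all lie in the same direction. Mat.LERKO 4, the library with high acute phase transcripts, had the lowest value of all 16 for 5 genes, Nfe2l2, Gclc, Sod1, Sod2 and Cat, and the highest for Srxn1. Its hepatocyte marker sum, 87300 CPM, was also the lowest of all, against 110000 CPM or more in the other libraries. This sum mostly follows albumin, Alb, which was at 61709 CPM in it. Ttr, Hnf4a, Cyp2e1, Cps1 and Tat were also lowest there among the Mat.LERKO livers, while Apoa1 lay within their range and Serpina1a was highest. What the sum says of hepatocyte content was not tested. The part of the acute phase transcripts in these values was not tested. Imm.LERKO 1 was among the 3 highest libraries for 7 of the 10 genes, with acute phase transcripts at 9030 CPM. How often Mat.LERKO 4 was lowest or highest, or Imm.LERKO 1 among the highest, over all tested genes was not counted. These counts therefore describe the libraries and cannot be read as particular to the 10 genes.

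For the 45 pairs of genes, correlations of log2 CPM over the 16 livers were taken after removal of group means, with a permutation test of 100000 shuffles within groups. No pair passed an adjusted p of 0.05 in Pearson's r or Spearman's rho. Sod2 and Cat had the highest r, 0.854 (permutation p = 0.00372, adjusted p = 0.0837), with a rho of 0.797 (adjusted p = 0.0567 over the 45 pairs). Without Mat.LERKO 4 and Imm.LERKO 1, r of Sod2 and Cat was 0.432. In each such check the libraries left out were the 2 farthest from the median of the first gene of the pair. Leaving them out narrows that gene's range, which can lower r by itself, so the fall does not show how far the relation rests on them. Gclc and Sod1 had an r of 0.757 (permutation p = 0.00139, adjusted p = 0.0625) and a rho of 0.724 (adjusted p = 0.1), and r was 0.648 without Mat.LERKO 4 and Imm.LERKO 4. Nfe2l2 RNA had its highest r with Cat, 0.741 (permutation p = 0.0147, adjusted p = 0.166; rho 0.682, adjusted p = 0.1; r 0.782 without Imm.LERKO 2 and Imm.LERKO 3), and 0.55 with Sod2. With the NRF2 targets its r was 0.371 with Nqo1, 0.589 with Gclc, 0.205 with Gclm, 0.0752 with Txnrd1 and -0.268 with Srxn1, with adjusted permutation p-values from 0.399 to 0.952. These genes share each library's depth and scaling, so the values describe these libraries.

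The genes whose levels ran most like each member were looked up among 10891 well-measured genes by Pearson's r of log2 CPM over all 16 libraries, as a description with no test. Nqo1 ran most like Aldh1a7 (r = 0.938), Idh1 (0.875) and Mdh1 (0.875), an aldehyde dehydrogenase and cytosolic isocitrate and malate dehydrogenases. Genes that ran closely with Srxn1 included Oxsm (0.930) and Kremen1 (0.909). Cat ran most like Sult1c2 (0.942), Uqcrc1 (0.933) and Ids (0.922), and Gpx1 most like Pgrmc1 (0.932), Chmp3 (0.924) and Ube2d3 (0.922). For Gclc the closest gene was Atf1 (0.916), for Gclm Poldip2 (0.912), for Txnrd1 the alanyl-tRNA synthetase Aars (0.907), for Sod1 the complex I subunit Ndufs7 (0.910) and for Sod2 Gypc (0.915). Nfe2l2 had the weakest best match, Bdh2 (0.818).

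The wider pathway was read from 9 lists of 115 genes, of which 109 were tested. In mature knockouts none passed by edgeR or DESeq2, and 3 had an unadjusted p below 0.05 by edgeR (2.75%, against 7.3% of all genes) and 5 by DESeq2. In immature knockouts none passed by either tool, and 4 had such a p by edgeR (3.67%, against 2.76%) and 3 by DESeq2. Between the control stages none passed by either tool, and 10 had such a p by edgeR (9.17%, against 9.84%) and 11 by DESeq2. The smallest edgeR adjusted p was 0.652 in mature knockouts and 0.272 between the control stages.

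Among the 13 tested NRF2 regulators, 0 passed in either knockout comparison and the median log2 fold change was -0.01 in mature and -0.02 in immature mice. Keap1, which holds NRF2 back, averaged 62.4 ± 4.45 CPM in Mat.LERKO and 54.1 ± 2.10 CPM in Mat.Con (SD, n = 4 each), a log2 fold change of 0.21 ± 0.09 (SE; edgeR adjusted p = 0.658). Bach1, a repressor at the same elements, was at 35.4 to 43.4 CPM in the 4 Imm.LERKO livers and 41.3 to 58.8 CPM in the 4 Imm.Con livers, a log2 fold change of -0.30 ± 0.13 (edgeR adjusted p = 1). Sqstm1, whose product p62 competes for KEAP1, averaged 302 ± 16.7 CPM in Mat.LERKO and 263 ± 18.8 CPM in Mat.Con (edgeR adjusted p = 0.705).

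Of the 14 tested antioxidant and NADPH genes, 0 passed and the median log2 fold change was -0.03 in mature and 0.05 in immature knockouts. The ferritin chains Ftl1 and Fth1, which store iron, averaged 2340 ± 231 and 1740 ± 148 CPM in Mat.LERKO and 2440 ± 259 and 1670 ± 38.7 CPM in Mat.Con. Osgin1, an oxidative stress-induced growth inhibitor, averaged 173 ± 23.4 CPM in Mat.LERKO and 109 ± 39.3 CPM in Mat.Con, a log2 fold change of 0.66 ± 0.33 (SE; edgeR adjusted p = 0.703). G6pdx, the entry enzyme of the pentose phosphate pathway, averaged 8.72 ± 9.55 CPM in Imm.LERKO and 3.85 ± 0.83 CPM in Imm.Con (edgeR adjusted p = 1). Imm.LERKO 4 was at 23.0 CPM and the other Imm.LERKO livers at 3.47 to 4.85 CPM, inside the Imm.Con range of 3.11 to 4.92 CPM. Imm.LERKO 4 held muscle transcripts, and Mat.Con 1 and Mat.Con 2, which held more of them, had G6pdx at 6.04 and 4.56 CPM. The part of muscle transcripts in the G6pdx values was not tested.

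Of the 18 tested detoxification and export genes, 0 passed, with a median log2 fold change of -0.06 in mature and 0.13 in immature knockouts. Gstm2, a glutathione transferase with close paralogs whose reads could be split, averaged 59.1 ± 25.0 CPM in Imm.LERKO and 33.4 ± 20.8 CPM in Imm.Con (log2 fold change 0.82 ± 0.34, edgeR adjusted p = 1). Imm.LERKO 4 was at 96.0 CPM and the other Imm.LERKO livers at 41.3 to 52.6 CPM. Imm.Con 3 was at 63.6 CPM and the other Imm.Con livers at 16.5 to 29.1 CPM, so the groups overlapped. Abcc2, a canalicular exporter of glutathione conjugates, averaged 504 ± 77.3 CPM in Mat.LERKO and 592 ± 23.2 CPM in Mat.Con (edgeR adjusted p = 0.705). Mgst1, a microsomal glutathione transferase, averaged 1640 ± 222 CPM in Mat.LERKO and 1600 ± 167 CPM in Mat.Con (edgeR adjusted p = 0.985).

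Of the 14 tested genes of glutathione synthesis and recycling, 0 passed, with medians of 0.14 in mature and 0.03 in immature knockouts. Chac1, which degrades glutathione, averaged 4.64 ± 2.67 CPM in Imm.LERKO and 11.7 ± 3.51 CPM in Imm.Con, a log2 fold change of -1.34 ± 0.49 (SE; edgeR adjusted p = 1). Gsr, glutathione reductase, averaged 43.0 ± 3.54 CPM in Mat.LERKO and 38.1 ± 4.22 CPM in Mat.Con (edgeR adjusted p = 0.711). Of the 10 other peroxidases and peroxiredoxins, 0 passed, with medians of -0.05 and 0.08; Prdx1, a substrate of sulfiredoxin, averaged 649 ± 112 CPM in Mat.LERKO and 570 ± 56.9 CPM in Mat.Con (edgeR adjusted p = 0.813). Of the 13 genes of the thioredoxin system and protein repair, 0 passed, with medians of -0.07 and 0.00; Sesn2, a stress-induced sestrin, averaged 12 ± 2.34 CPM in Mat.LERKO and 15.4 ± 1.44 CPM in Mat.Con (edgeR adjusted p = 0.683).

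Of the 9 dismutase partners and other scavengers, 0 passed, with medians of 0.01 and 0.00. Mt2, a metallothionein that binds zinc and copper and is also induced in the acute phase, averaged 212 ± 337 CPM in Mat.LERKO and 50.1 ± 34.2 CPM in Mat.Con, with Mat.LERKO 4, the library high in acute phase transcripts, at 715 CPM and the other knockouts at 7.71 to 85.8 CPM (edgeR adjusted p = 0.711). Of the 11 oxidases that make hydrogen peroxide or superoxide, 0 passed, with medians of -0.05 and 0.04. Acox2, a peroxisomal branched-chain acyl-CoA oxidase, had the smallest adjusted p of the 109 genes in mature knockouts: it averaged 120 ± 13.9 CPM in Mat.LERKO and 90.1 ± 20.4 CPM in Mat.Con, a log2 fold change of 0.42 ± 0.18 (SE; edgeR adjusted p = 0.652). Of the 10 genes for selenoprotein synthesis factors and for further selenoproteins, 0 passed, with medians of -0.03 and 0.00. Other genes of these lists taken for a high level or a small p were Nfe2l1, Cyp2a5, Hagh, Cth, Gpx4, Gpx8, Msrb1, Txn1, Txnrd2, Selenop, Pon1, Uox, Sephs2, Selenow and Selenos. Their log2 fold changes lay between -0.44 (Gpx8) and 0.25 (Selenos) in mature knockouts and between -0.35 (Cyp2a5) and 0.21 (Cth) in immature knockouts, and none passed by edgeR or DESeq2.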

How the data were processed

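Per the labels' protocols, column-purified, DNase-treated liver RNA of single mice was made into stranded paired-end libraries. Per the submitters' processing notes, STAR, R 4.05, limma and mm10 were used; a counting program, annotation or strand setting was not given in the sources used here. Raw gene counts were deposited by the authors; 5 columns are best called estimated counts, since 10 deposited values were not whole, and these were rounded.

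Genes were filtered with filterByExpr (minimum count 10, total 15), which left 13379, scaled by TMM factors (0.852 to 1.07) and tested in edgeR 4.0.16 (R 4.3.3) with glmQLFTest, 1 coefficient per group, and Benjamini-Hochberg adjustment over all tested genes. SEs were taken as log2 fold change over root F, intervals are 95%, and the biological coefficient of variation was 21.2%. P-values cover the spread between these mice. Positions are from GENCODE vM21. The members, gene lists, markers and tests were chosen with earlier results of these data known. Named list genes are the 2 of highest level per length and those with the smallest p in each knockout comparison. Values of some genes that this rule names are not reported here. Alternatives were DESeq2 1.42.0, limma-voom (limma 3.58.1), other scalings, filters and thresholds, a robust fit, fits of 2 groups alone and leave-one-out fits. Scripts were tested on simulated counts.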

Additional observations from a re-analysis of the deposited data

Results flagged for a closer look

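Values were marked where 1 library of a group of 4 lay far from the other 3, a criterion that chance meets in about 1 of 20 groups, or about 4 of the 80 groups of values examined; 8 were marked. Nqo1 was at 9.64 CPM in Imm.Con 3, against 5.60 to 6.13 CPM in the other Imm.Con livers, and this mouse also had the highest Cat value of its group, 2820 CPM against 2540 to 2570 CPM. Srxn1 was at 26.4 CPM in Mat.Con 1, against 19.9 to 20.9 CPM in the other Mat.Con livers; this library had the highest muscle transcript sum, 761 CPM, whose part in the value was not tested. Acute phase transcripts summed to 89300 CPM in Mat.LERKO 4, against 8230 to 9270 CPM in the other Mat.LERKO livers, and neutrophil transcripts to 71.1 CPM, against 0.380 to 3.66 CPM. Muscle transcripts summed to 149 CPM in Imm.LERKO 4, against 0.586 to 1.06 CPM in the other Imm.LERKO livers, and to 1.98 CPM in Mat.LERKO 3, against 1.22 to 1.31 CPM. Cholangiocyte transcripts summed to 5.73 CPM in Imm.Con 3, against 7.55 to 7.85 CPM in the other Imm.Con livers.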

How the results depend on the processing

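The count of members past the threshold was 0 in all 7 comparisons under each of the alternatives run, and the lowest adjusted p of any member was 0.12, in Mat.Con against Imm.Con with the compared groups alone, where 5 members had an unadjusted p below 0.05. All 26 member fold changes of at least 1 SE kept their sign; 30 of the 44 smaller ones took the other sign in some setting. Over all genes DESeq2 called 27 in mature knockouts, 13 in immature knockouts, 3 in the averaged knockout, 74 between control stages, 6 between knockout stages, 29 in the averaged stage and 22 for the difference of effects, against 1, 1, 1, 0, 0, 0 and 0 by edgeR; the cause was not tested. The compared groups alone gave 6 genes between control stages. Leaving out single libraries gave 1 to 2 genes in mature knockouts and 0 to 1 in each stage comparison of single groups; 2 and 1 came without Mat.LERKO 1 (knockouts, knockout stages) and 1 without Mat.LERKO 4 (control stages). Among member pairs, 0 to 1 passed with single libraries left out (in Pearson's r, 1 without Mat.LERKO 2, Mat.LERKO 4, Mat.Con 4 or Imm.Con 2; in Spearman's rho, 1 without Mat.LERKO 4, Mat.Con 2, Mat.Con 4 or Imm.Con 2), and 3 passed in r and 5 in rho with group means kept, where group differences enter both. Scaling by library size alone moved the median of all genes for the difference of effects to -0.13. The compared groups alone were not run for comparisons that use all 4 groups. No paired analysis was possible because the labels give no replicate numbers that groups share; numbers follow the order of listing. The lowest count of any member in a library was 100 (Nqo1 in Imm.LERKO 2), and intervals cover the spread between mice at this depth.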
